A study of Mus musculus with 24 samples.

Results

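The circadian clock genes were 10 mouse genes, Clock, Per1, Per2, Per3, Cry1, Cry2, Nr1d1, Nr1d2, Dbp and Nampt, out of 21627 protein-coding genes on the autosomes and the X chromosome. Called peaks were assigned to a gene when they overlapped the gene or the 5 kb on either side of it in mm10, the genome build of the files. The data were peak lists from CUT&Tag, an assay that tethers a transposase through an antibody so that DNA near the target is cut out and sequenced. Group 3 innate lymphoid cells (ILC3s), resident lymphocytes of the gut, were sorted from the small intestine into CCR6+, NKp46+ and DN subsets. KO cells carried floxed Cxxc1 alleles (Cxxc1flox/flox) together with a Cre. WT cells carried Cxxc1flox/flox without the Cre, so the floxed alleles were shared by all groups and no group had Cre alone. Each of the 12 groups, given by genotype, subset and antibody (against CFP1 or against H3K4me3), held 2 libraries. Libraries were made from 100000 cells, with mice given as 6 to 8 weeks old. Elsewhere the protocols mention mice both aged and young, as well as a medium for culture. They give neither the number of mice behind a library nor the time of day at which tissue was taken.

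The mammalian clock is a transcriptional feedback loop. CLOCK pairs with BMAL1, the product of Arntl, and activates genes that carry E-boxes, among them the Per, Cry and Nr1d genes, Dbp and Nampt. PER and CRY proteins then repress CLOCK and BMAL1, while the nuclear receptors NR1D1 and NR1D2 (REV-ERB alpha and beta) repress Arntl at sites that ROR receptors activate. DBP activates D-box genes as an output of the loop, and NAMPT makes the precursor of NAD. Intestinal ILC3s are known to have a clock that shapes their cytokine production. Cxxc1 encodes CFP1, a subunit of the SET1 methyltransferase complexes that recognises CpG sites without methylation. These complexes place H3K4me3, the trimethyl mark on histone H3 found at active gene starts.

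The 24 lists held 303 peaks at the clock genes, 99 of CFP1 and 204 of H3K4me3. CFP1 lists held 714 to 8881 peaks in KO libraries (median 1281) and 4574 to 7983 in WT libraries (median 5376). Only the KO lists of NKp46+ replicate 2 (4891 peaks) and DN replicate 2 (8881 peaks) were as long as WT lists, so results are given with and without them. H3K4me3 lists held 11794 to 18127 peaks in KO and 12838 to 15397 in WT. The lists carry no read counts, so depth is unknown. A missing peak can reflect less CFP1 in each cell, fewer cells with CFP1 or a shallower library, and these cannot be told apart. At Cxxc1 itself a CFP1 peak was listed in 0 of 6 KO and 2 of 6 WT libraries, and H3K4me3 in all of both, which does not check the deletion. Of 9 ILC3 markers, 3 to 7 carried H3K4me3 in KO libraries and 7 in every WT library, while of 22 markers of other cell types 4 to 12 did in KO and 8 to 11 in WT.

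CFP1 binds CpG, so the RefSeq promoters (GRCm38.p6, the build of mm10) were read for CpG content over 250 bases before and 50 after each listed start. Promoters were matched for 9 of the 10 genes, all but Per2, with 3 listed starts for Clock and 2 for Per1. The following 4 show the contrasts met in the CFP1 data, with every CpG in capitals and the gene strand read 5′ to 3′. Nr1d2 held CFP1 in every library, Cry1 in the next largest number, Per3 in the fewest, and Nr1d1 has the fewest CpGs together with a start of Clock.
Nr1d2 (chr14:18239057-18239356, minus strand): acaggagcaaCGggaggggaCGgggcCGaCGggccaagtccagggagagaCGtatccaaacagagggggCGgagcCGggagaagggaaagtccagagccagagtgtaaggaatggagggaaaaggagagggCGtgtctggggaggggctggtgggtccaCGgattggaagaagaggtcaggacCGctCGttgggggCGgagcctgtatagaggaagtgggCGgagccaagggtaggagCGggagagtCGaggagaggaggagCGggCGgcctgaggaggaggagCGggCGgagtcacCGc
Cry1 (chr10:85185005-85185304, minus strand): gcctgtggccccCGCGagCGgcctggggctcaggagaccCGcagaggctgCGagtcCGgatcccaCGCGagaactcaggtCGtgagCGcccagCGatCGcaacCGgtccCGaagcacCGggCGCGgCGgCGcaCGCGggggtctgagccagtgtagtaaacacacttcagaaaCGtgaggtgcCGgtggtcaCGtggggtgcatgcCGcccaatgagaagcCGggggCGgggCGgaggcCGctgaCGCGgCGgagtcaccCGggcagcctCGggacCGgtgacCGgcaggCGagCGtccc
Per3 (chr4:151044616-151044915, minus strand): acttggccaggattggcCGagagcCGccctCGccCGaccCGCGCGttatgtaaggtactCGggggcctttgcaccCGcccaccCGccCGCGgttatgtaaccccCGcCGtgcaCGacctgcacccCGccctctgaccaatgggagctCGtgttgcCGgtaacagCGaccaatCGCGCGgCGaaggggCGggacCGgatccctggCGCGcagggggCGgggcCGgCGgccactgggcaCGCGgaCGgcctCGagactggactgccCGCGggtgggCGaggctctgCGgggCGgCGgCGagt
Nr1d1 (chr11:98775328-98775627, minus strand): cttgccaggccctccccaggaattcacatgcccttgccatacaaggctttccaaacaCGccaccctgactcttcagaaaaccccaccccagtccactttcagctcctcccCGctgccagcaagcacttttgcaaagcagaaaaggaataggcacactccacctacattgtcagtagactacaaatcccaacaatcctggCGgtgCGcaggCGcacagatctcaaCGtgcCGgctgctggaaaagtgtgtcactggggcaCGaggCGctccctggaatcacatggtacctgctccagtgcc
These windows hold 20 CpGs at Nr1d2, 38 at Cry1, 41 at Per3 and 9 at Nr1d1. The median of the 12 clock gene windows was 25.5 CpGs. It was 13 over all 21044 promoter windows, and 23 over the 8646 windows with H3K4me3 in all 12 libraries. Among those marked windows the median was 27 CpGs where all 6 WT libraries had CFP1 (2152 windows) and 19 where none had (2440 windows). The clock genes did not follow CpG number in order: Per3, with more CpGs than Nr1d2, had a CFP1 peak over the window in 1 KO and 1 WT library, against 6 and 6 at Nr1d2.

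CFP1 was called at fewer KO than WT libraries for 8 of the 10 clock genes and at equal numbers for 2, with a median difference of −3 libraries. Over all protein-coding genes, the median share with CFP1 was 7.62% in KO libraries and 28.1% in WT. The direction is thus not particular to the clock genes, and the number of all genes with fewer KO libraries was not counted. Per1, Per2, Dbp and Nampt each had a peak in 2 of 6 KO and 6 of 6 WT libraries, and in each the KO pair was NKp46+ and DN of replicate 2. Clock had 1 and 5, Cry1 had 4 and 6, Cry2 had 2 and 4, Nr1d1 had 3 and 4, Per3 had 1 and 1, and Nr1d2 had 6 and 6, in KO and WT libraries in that order. Ordered by all 12 libraries, Nr1d2 came first, Cry1 next, then the 4 genes with 8 libraries, then Nr1d1, Cry2 and Clock, and Per3 last. With presence as the readout, neighbours in this order differ by 2 or fewer libraries up to the step down to Per3.

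By two-sided Fisher's exact tests with Benjamini-Hochberg adjustment over the 7708 genes with CFP1 in 2 to 10 libraries, 0 genes (0.0%) passed, and so 0 of the 9 clock genes tested. Without adjustment, 495 genes (6.42%) had a p under 0.05, each with fewer KO libraries, and 0 of the 9 clock genes were among them. The exact p of a gene with 2 KO and 6 WT libraries is 0.0606, and its adjusted p was 0.301. A deficit of 4 or more KO libraries was found at 5 of the 9 clock genes tested, against 25.1% of all genes tested. Such a deficit needs CFP1 in 4 or more WT libraries. CFP1 was listed in all 6 WT libraries at 6 of the 10 clock genes, against 14.7% of all protein-coding genes. The 2 shares were not matched for WT presence, so no stronger deficit at clock genes is read from them. Without the KO libraries of NKp46+ and DN of replicate 2, which were picked with their list lengths known, Per1, Per2, Dbp and Nampt had 0 of 4 KO and 6 of 6 WT libraries. These 2 libraries were the only KO libraries with CFP1 at the 4 genes, so the 0 of 4 follows from the choice and is given as a description. Across all genes 979 of 7162 (13.7%) passed without them, from which nothing is read here. Without KO DN replicate 2 alone, 0 clock genes passed and 340 genes did.

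**Figure D1:**
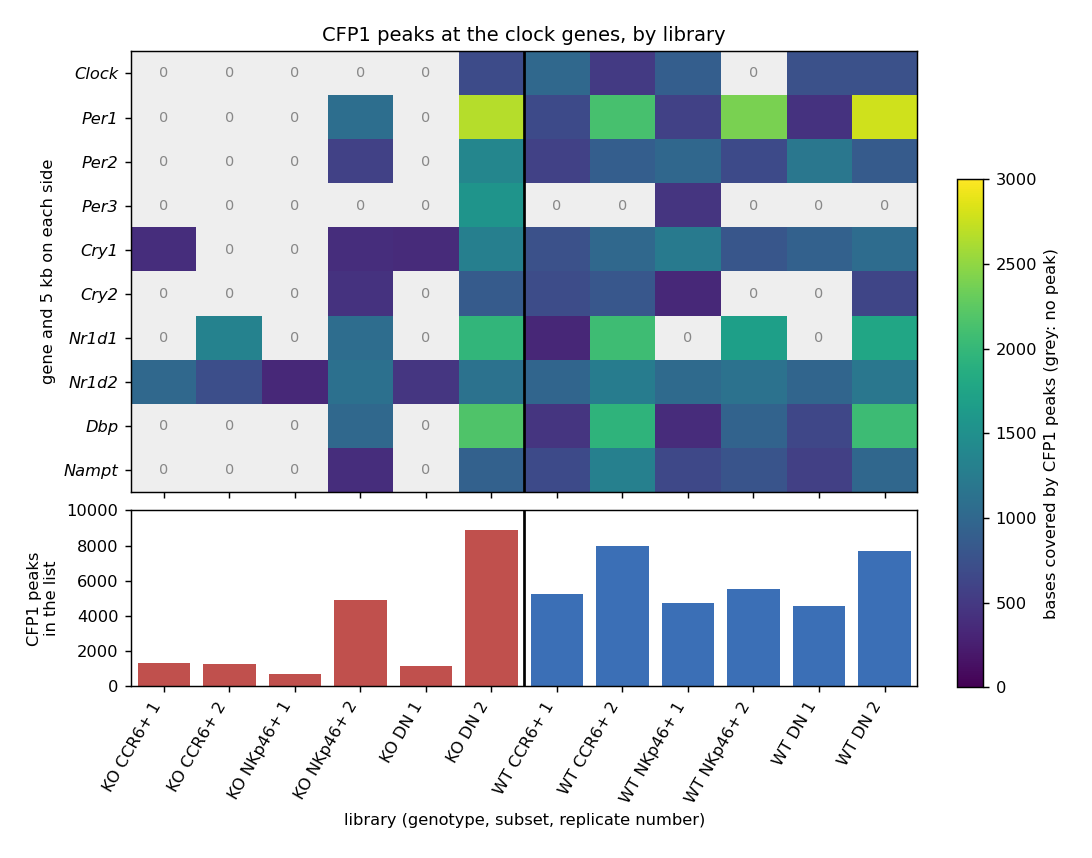
CFP1 peaks at the 10 clock genes in each of the 12 CFP1 libraries, KO on the left and WT on the right. Colour gives the bases covered by CFP1 peaks in the gene and its 5 kb flanks, grey cells marked 0 have no peak, and the bars below give the number of peaks in each list. The 4 KO lists of 714 to 1312 peaks have CFP1 at 1 or 2 clock genes, and the other lists at 7 to 10.

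Counted by library, the KO CCR6+ lists had CFP1 at 2 and 2 of the 10 clock genes, replicate 1 before replicate 2, the KO NKp46+ lists at 1 and 8, and the KO DN lists at 2 and 10. The WT CCR6+ lists had it at 9 and 9, the WT NKp46+ lists at 9 and 7, and the WT DN lists at 7 and 9. The KO groups therefore overlap WT through the replicate 2 libraries of NKp46+ and DN cells. The share of all genes with CFP1 moved with the same libraries, 4.29% to 33.2% in KO and 24.5% to 32.6% in WT, and the part of list length in the clock genes' values was not tested. The 12-library pattern of Per1, Per2, Dbp and Nampt was shared by 626 genes, 2.89% of all protein-coding genes. The presence in all 12 libraries seen at Nr1d2 was shared by 283 genes (1.31%).

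Among the repressors, Nr1d2 alone had CFP1 in all 12 libraries, in a peak at the annotated start (merged span −338 to 926 b). It covered 340 b at the lowest, 863.5 b at the median and 1133 b at the highest in KO libraries, against 976, 1081 and 1265 b in WT. The narrowest KO peaks were those of NKp46+ replicate 1 (340 b) and DN replicate 1 (474 b), and the groups overlapped. These narrow peaks began 25 and 18 b past the start. In the 4 short KO lists its fold enrichment, the authors' value, was 5.07 to 7.24, at percentiles 36.0 to 91.4 of the folds in its own list. Nr1d2 thus kept a called peak in lists in which 7 of the other clock genes had none.

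Cry1, a repressor that acts with the PER proteins, was the other member often listed in short KO lists, with its start peak in CCR6+ replicate 1 and DN replicate 1. Its KO start peaks covered 371, 391 and 1293 b at the lowest, median and highest of 4 libraries, and its WT start peaks covered 653, 830 and 1015 b in 6. The KO values fell on both sides of the WT range. In WT libraries the Cry1 peak stood at percentiles 80.8 to 96.8 of its lists. Cry2, its paralog, had weaker peaks, at percentiles 31.2 to 57.4 in the 4 WT libraries that listed it.

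Among the Per genes, Per2 had start peaks at percentiles 62.7 and 81.7 in the 2 KO lists with a peak and 68.2 to 92.5 in WT lists. Per1 had the same presence from calls at the weak end, with its 5′ peak at percentiles 17.0 and 28.2 in KO and 2.00 to 26.6 in WT. The Per1 5′ peak (merged span −540 to 639 b) sits at the annotated gene boundary, while the 2 RefSeq starts lie 3841 and 5044 b inside it. A further Per1 region from 1936 to 4055 b, which reaches the first of those starts, had CFP1 in 2 KO and 4 WT libraries. With only peaks of fold enrichment 5 or more, Per1 had 0 KO and 0 WT libraries, as had Dbp, whose start peak stood at percentiles 1.25 to 17.6 in WT lists. Per2 kept 2 and 6 libraries and Nampt had 1 and 5 under that cutoff. Their presence is therefore given with the limit that it rests, for Per1 and Dbp, on peaks of low fold enrichment. Per3 had a start peak in KO DN replicate 2 and in WT NKp46+ replicate 1 only.

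Clock, the activator, had its CFP1 peak in KO DN replicate 2 and in every WT library but NKp46+ replicate 2. The merged span of 1219 b holds 2 of the 3 listed starts. Over the window of the second listed start, with 46 CpGs, a peak lay in 1 KO and 5 WT libraries. Over that of the third, with 42 CpGs, it lay in 1 KO and 2 WT libraries. Over that of the first, with 9 CpGs, it lay in 0 KO and 1 WT libraries. A predicted gene, Gm7467, has a listed start within 1 kb of the same span. With peaks of fold enrichment 5 or more, Clock had 0 KO and 5 WT libraries.

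Nr1d1, the paralog of Nr1d2, had CFP1 calls that split by replicate number more than by genotype. CFP1 was listed there in 3 of 3 KO and 3 of 3 WT libraries of replicate 2, and in 0 of 3 KO and 1 of 3 WT libraries of replicate 1. Per1, Per2, Dbp and Nampt had 0 of 3 KO and 3 of 3 WT libraries in replicate 1, and 2 of 3 KO and 3 of 3 WT in replicate 2. Nr1d1 carried CFP1 at 2 places, at the start (merged span −564 to 313 b, 2 KO and 3 WT libraries) and inside the gene (835 to 2277 b, 3 KO and 4 WT libraries). Of the peaks at the start, those of KO CCR6+, KO DN and WT DN replicate 2 ended before it, at −80, −26 and −5 b. Nampt, the output gene of NAD synthesis, had its peak at the start, at a median percentile of 37.3 in the 2 KO lists and 53.8 in the 6 WT lists. Its peak in KO NKp46+ replicate 2 began 197 b past the start.

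CFP1 peaks at the clock genes overlapped H3K4me3, with 1 exception. The share over all CFP1 peaks of the lists was not computed, so this is not read as particular to these genes. Of the 34 CFP1 peaks in KO libraries, 34 overlapped an H3K4me3 peak of the same genotype, subset and replicate number and 25 (73.5%) lay wholly inside it. In WT libraries 64 of 65 overlapped (98.5%) and 46 (70.8%) lay wholly inside. The 2 antibodies were run on separate libraries that share no more than these labels. The WT exception was a peak of 413 b inside Cry1, 9889 to 10301 b from its start, in DN replicate 2.

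H3K4me3 itself was listed at all 10 clock genes in all 12 libraries, with 6 KO and 6 WT libraries each. The same held for 10931 of the 21627 protein-coding genes (50.5%). Every clock gene had an H3K4me3 region within 1 kb of an annotated or listed start in every library. The presence of H3K4me3 could thus not differ at these genes. Of the 2109 genes that could, 0 passed Fisher's exact test with adjustment and 31 had an unadjusted p under 0.05. An exact permutation test within subsets called 0 genes too, but its p could not fall below 0.00926 with 216 arrangements. After adjustment over 2109 genes this floor leaves almost no way to pass, so nothing is read from that test.

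**Figure D2:**
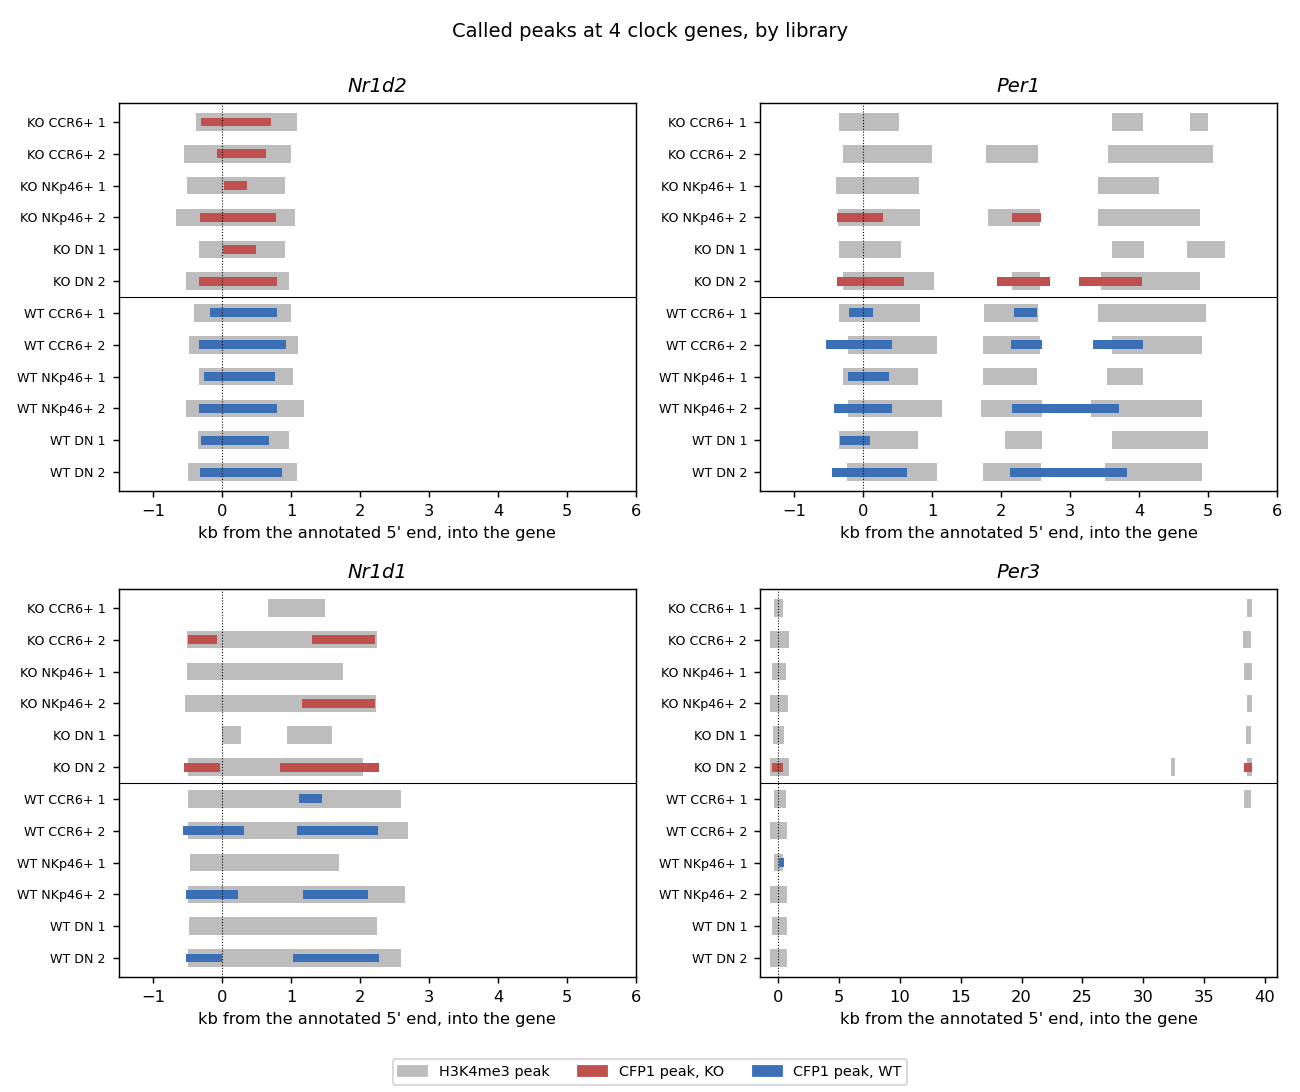
Called peaks at Nr1d2, Per1, Nr1d1 and Per3 in each library, KO rows above WT rows, by distance in kb from the annotated 5′ end into the gene. Grey bars are H3K4me3 peaks, and red and blue bars are CFP1 peaks in KO and WT libraries. The H3K4me3 region of Nr1d1 ends at 1497 to 2247 b in KO and 1690 to 2689 b in WT, and the distal Per3 region is listed in 6 KO and 1 WT libraries.

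Extent was measured as the bases covered by H3K4me3 peaks in each gene and its flanks, on a log2 scale with each library's median over 10931 genes subtracted. It was tested with limma (genotype and subset as terms, Benjamini-Hochberg adjustment over these genes). The authors' peak caller sets peak edges from signal, so covered length can also move with depth. Median covered length over all genes was 1012 to 1655 b in KO and 1068 to 1640 b in WT libraries. Longer values fell in replicate 2 for both genotypes. Of all genes, 24 passed with shorter coverage in KO (0.22%) and 8 with longer coverage (0.0732%). When replicate number entered the fit as a block, 80 genes passed in the 2 directions together, in place of 32. In both fits 0 of the 10 clock genes passed. The 10 had a median log2 difference of 0.02, with 4 below 0, against a median of −0.01 over all genes. Without centring 6 of the 10 were below 0, with Clock and Nr1d2 changing sign.

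Nr1d1 had the largest estimated difference of the 10. Its H3K4me3 region covered 839, 2406 and 2779 b at the lowest, median and highest of the KO libraries, against 2151, 3087.5 and 3183 b in WT. The short KO values were 839 b in CCR6+ replicate 1 and 927 b in DN replicate 1, and the raw values of the groups overlapped. On the centred log2 scale KO values ran from −0.27 to 0.79 and WT values from 0.93 to 1.19, so these did not overlap. Among all genes, 1.06% had non-overlapping groups that were lower in KO, and 0.329% had them higher. The log2 difference was −0.62 ± 0.19 (SE, 6 libraries against 6) with an adjusted p of 0.291 in limma, or 0.172 with the replicate block, so it did not pass. On the centred scale KO was shorter in 6 of 6 matched pairs, and in bases in 5 of 6. On the centred scale, within replicate 1 the mean difference was −0.99 and within replicate 2 it was −0.24.

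The shape of the Nr1d1 region differed in the libraries that set these values. In KO CCR6+ replicate 1 the only peak ran from 659 to 1497 b and did not reach the start. In KO DN replicate 1 there were 2 peaks, one of 278 b at the start and another from 946 to 1594 b. The other KO peaks began −541 to −501 b from the start and ended 1757 to 2247 b inside the gene, while WT peaks began at −501 to −460 b and ended 1690 to 2689 b inside. The same 2 KO libraries had the lowest median coverage over all KO libraries, 1012 and 1064 b, and WT NKp46+ replicate 1, at 1068 b, covered 2151 b of Nr1d1. Whether list depth contributes to the Nr1d1 difference was not tested. Thra, which lies next to Nr1d1 and overlaps it by 1075 b, did not overlap this region, but the predicted gene Gm31862 has a listed start within 1 kb.

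Dbp, the D-box activator, had a domain of the same kind that reached 3576 b in merged span. Total coverage at Dbp was 1423, 3011.5 and 3889 b at the lowest, median and highest of the KO libraries, and 2550, 3694.5 and 3775 b in WT. Again the 2 lowest KO values were CCR6+ replicate 1 (1423 b) and DN replicate 1 (1707 b), and the groups overlapped. The log2 difference was −0.33 ± 0.13 (SE) with an adjusted p of 0.406 in limma. On the centred scale KO was lower in 6 of 6 pairs, with a mean difference of −0.59 in replicate 1 and −0.07 in replicate 2, while in bases it was lower in 4 of 6. Without KO CCR6+ replicate 1 the log2 difference was −0.22. The 5′ side of this domain also reaches Car11, and a separate H3K4me3 region at 9596 to 10483 b overlaps the neighbours Sphk2 and Rpl18, so these counts are not of Dbp alone.

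**Figure D3:**
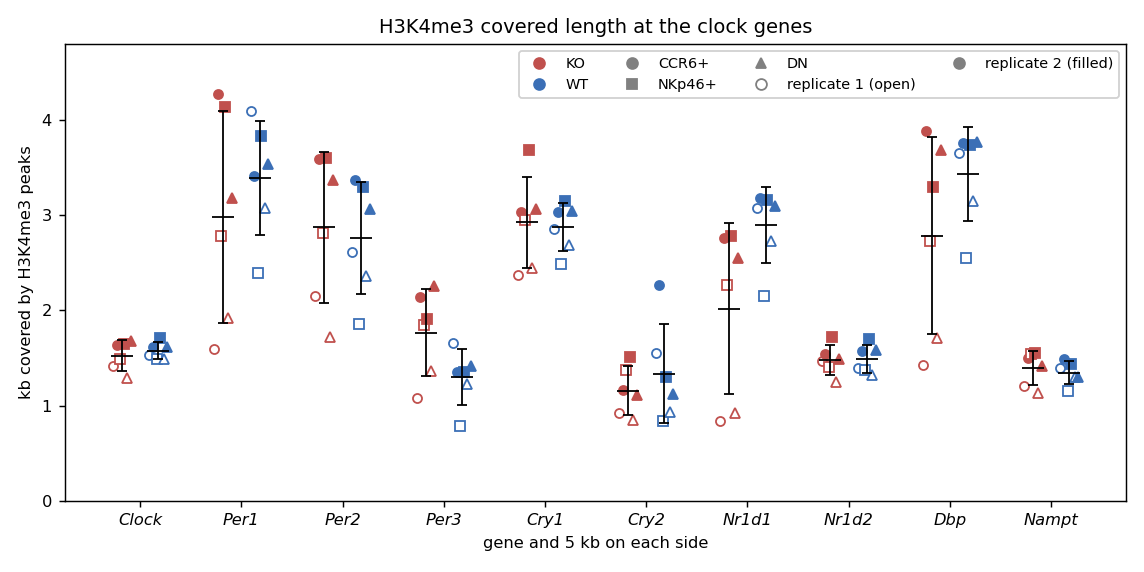
Bases covered by H3K4me3 peaks, in kb, at each clock gene with its 5 kb flanks. Points are libraries (KO left of WT, shape by subset, open for replicate 1), and bars are the mean and SD of 6 libraries. Nr1d1 shows 2 KO libraries at 839 and 927 b, below every WT library, and Clock and Nr1d2 show narrow ranges in both genotypes.

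Per1 had 3 H3K4me3 regions along its first 5 kb in most libraries. The first, over the annotated 5′ end, and the third, over the listed start at 3841 b, were present in 6 KO and 6 WT libraries. The listed start at 5044 b lay under a peak in 2 KO and 0 WT libraries. The second, at 1713 to 2589 b, was listed in 3 KO libraries and 6 WT libraries, with folds among the lowest of the lists (up to percentile 0.359 in KO and 1.11 in WT). The 3 KO libraries with it were the replicate 2 libraries. A region beyond the 3′ end, 15329 to 16135 b from the 5′ end, was listed in 3 KO and 1 WT libraries. Total coverage was 1590, 2979.5 and 4277 b at the lowest, median and highest in KO, against 2392, 3476 and 4098 b in WT. The log2 difference of −0.20 ± 0.13 (SE) had an adjusted p of 0.725 in limma. Its sign differed between replicates, −0.48 in replicate 1 and 0.074 in replicate 2. Without KO CCR6+ replicate 1 it was −0.096, without WT CCR6+ replicate 1 it was −0.13, for the widest peak −0.11 and within 1 kb of the starts −0.067.

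Per3 was the clock gene with the largest positive difference. Its coverage was 1081, 1878 and 2253 b at the lowest, median and highest of the KO libraries, and 783, 1355 and 1658 b in WT. KO exceeded WT in 5 of 6 pairs, and the groups overlapped. The log2 difference was 0.49 ± 0.12 (SE), with an adjusted p of 0.170 in limma. It passed in 1 of the alternatives tried, without WT CCR6+ replicate 1 (0.59, adjusted p = 0.0496). Within 1 kb of the listed start the difference was 0.08, and for the widest peak alone it was 0.11. Within replicates 1 and 2 it was 0.38 and 0.59.

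The difference at Per3 lay at a distal region, chr4:151005772-151006491, in the gene body 38216 to 38935 b from the 5′ end. H3K4me3 was listed there in all 6 KO libraries and in 1 of 6 WT libraries, CCR6+ replicate 1. The KO peaks covered 364 to 661 b, at percentiles 20.9 to 55.5 of their lists, and the WT peak covered 639 b at percentile 25.9. This region was singled out after its values were seen. Tested as a region merged across libraries, an alternative also chosen after seeing the data, its Fisher's exact p was 0.0152 and its adjusted p was 0.998 over 8312 regions. Of those regions 0.577% had 5 or more KO libraries in excess. No annotated neighbour overlaps it. CFP1 was listed there in KO DN replicate 2 and in no WT library.

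The start region of Per3 overlaps the predicted gene Gm38529, which has a listed start within 1 kb. It covered 713, 1351 and 1542 b at the lowest, median and highest in KO, and 783, 1292 and 1420 b in WT. These groups overlapped nearly throughout.

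The remaining 6 genes had log2 differences from −0.10 (Cry2) to 0.10 (Nampt), none far above its own SE. Clock covered 1286, 1562 and 1684 b in KO and 1492, 1573 and 1712 b in WT at the lowest, median and highest, with a log2 difference of 0.00 ± 0.11 (SE). Nr1d2 covered 1253, 1477.5 and 1722 b in KO and 1321, 1483 and 1701 b in WT, with a difference of 0.04 ± 0.12 (SE). Their groups overlapped over almost the whole range. The ranges of Cry1 were 2377 to 3685 b in KO and 2485 to 3155 b in WT, and those of Nampt 1137 to 1553 b in KO and 1157 to 1489 b in WT. Those of Per2 were 1717 to 3597 b in KO and 1860 to 3369 b in WT. Coverage of Per2 and Cry1 includes an H3K4me3 region of the neighbours Hes6 and Mterf2, present in 6 KO and 6 WT libraries.

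**Figure D4:**
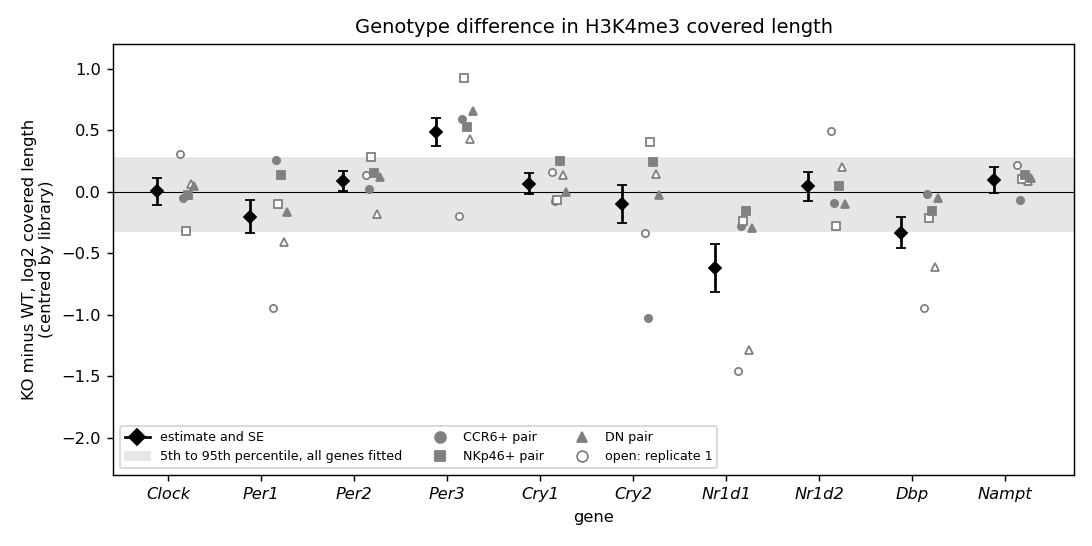
KO minus WT log2 covered length of H3K4me3 for each clock gene, centred by library. Diamonds are the estimates with their SE, grey symbols are the 6 pairs matched by subset and replicate, and the band spans the 5th to the 95th percentile of all genes fitted (−0.32 to 0.28). Nr1d1 (−0.62), Dbp (−0.33) and Per3 (0.49) lie outside the band, and 0 of the 10 passed the adjusted test.

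Between subsets, 1 gene of 10931 passed (0.00915%) and 0 of the 10 clock genes did. For the genotype difference across subsets, 0 genes passed (0.0%), clock genes included. Cry2 had the smallest unadjusted interaction p of the 10, 0.00565, with an adjusted p of 1.00 in limma. Its KO minus WT difference was −0.68 for the CCR6+ subset, 0.32 for NKp46+ and 0.059 for DN. In CCR6+ cells H3K4me3 covered 925 and 1167 b of Cry2 in KO replicates and 1558 and 2265 b in WT replicates, of which 459 and 1023 b in WT came from a region inside the gene, 10473 to 11531 b from its start. That region was also listed in both KO NKp46+ libraries.

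Clock motifs were sought in the 12 promoter windows on both strands. The E-box CACGTG lay in 7.91% of all promoter windows and in those of Per1 and Cry1, the variant CACGTT or AACGTG in 4.72% and in those of Cry1, Cry2 and Nr1d1, and the D-box TTANGTAA in 2.13% and in that of Per3, which holds it at 2 places. The ROR and REV-ERB core TAGGTCA (2.35% of windows) and the cyclic AMP element TGACGTCA (2.26%) had no match in these windows. The shorter TGACG within the cyclic AMP element lay in 23.8% of all windows and in 5 of these 12, both windows of Per1 and those of Cry1, Cry2 and Nampt. The E-box and its variant hold a CpG by their own letters, and the 2 D-boxes found here hold none. The E-box, variant and D-box stretches follow, each with its motif in capitals.
Per1 E-box (−166 b from the listed start): gcacccaagtcCACGTGcagggatgtgt
Per3 D-box (−205 b from the listed start): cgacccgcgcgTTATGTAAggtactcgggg
Per3 D-box (−158 b from the listed start): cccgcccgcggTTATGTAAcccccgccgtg
Cry1 E-box (−60 b from the listed start): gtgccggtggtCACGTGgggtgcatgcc
Cry1 E-box variant (−79 b from the listed start): cacacttcagaAACGTGaggtgccggtg
Cry2 E-box variant (−166 b from the listed start): cacatggtgggAACGTGagggggcggag
Nr1d1 E-box variant (−28 b from the listed start): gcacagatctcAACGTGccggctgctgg
Of the genes shown, the Cry1 window carried CFP1 in 4 KO and 6 WT libraries, the Per1 window in 1 and 3, the Cry2 window in 2 and 4, the Nr1d1 window in 2 and 3 and the Per3 window in 1 and 1, in KO and WT in that order. A match is a description of the letters in the window and not a measured site.

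Another 24 genes of the clock pathway served as context. CFP1 was listed in fewer KO libraries at 16, in more at 1 and in equal numbers at 7, with 0 of 17 tested passing Fisher's exact test with adjustment. The lower share of all genes with CFP1 in KO lists (median 7.62%, against 28.1% in WT) applies to these counts too. Ciart, a repressor of CLOCK and BMAL1, and Fbxw11, a ubiquitin ligase subunit that recognises PER proteins, had 2 KO and 6 WT libraries. Btrc, a ubiquitin ligase subunit related to Fbxw11, had 2 and 5, Wdr5, a PER partner and subunit of H3K4 methyltransferases, 3 and 6, and Npas2, a CLOCK paralog, Nono and Usp2 1 and 4. Sirt1, a NAD-dependent deacetylase, had 0 KO and 3 WT libraries. Tef, a paralog of Dbp, and the kinase gene Gsk3b had CFP1 in all 12, like Nr1d2.

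For H3K4me3 coverage, 1 of the 20 pathway genes fitted passed in the direction of shorter KO coverage and 0 in the other. This was Nfil3 (chr13:52967209-52982878), which encodes a repressor of D-box genes that is also needed for ILC development. It covered 1623 to 2322 b in KO libraries and 2057 to 3823 b in WT. On the centred scale the highest KO value, 0.68, lay below the lowest WT value, 0.78. The log2 difference was −0.56 ± 0.09 (SE, adjusted p = 0.0306 in limma). It lost the call in 12 alternatives, among them a window of 1 kb around the starts (−0.00092, adjusted p = 0.999), no centring (−0.61, adjusted p = 1.00) and the widest peak (−0.43, adjusted p = 0.381). It also lost it when any of 9 libraries was left out (adjusted p up to 0.115), with the difference at −0.52 to −0.57. CFP1 was listed at Nfil3 in 2 KO and 4 WT libraries.

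Genes outside these regions whose centred H3K4me3 coverage over the 12 libraries was most like that of a clock gene were Zfp36 (Pearson r = 0.935) and Slc52a3 (0.915) for Per1. They were Plekhg5 (0.979) and Smarcd3 (0.969) for Nr1d1, and Rab1a (0.987) and Ehd4 (0.985) for Clock. These are the highest of 10931 genes and carry no test. The lists ranged from 11794 to 18127 peaks, and their depth is unknown. The part of such differences between libraries in these correlations was not tested.

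The subset gates were checked on H3K4me3. Il7r was marked in 5 KO and 6 WT libraries, Ccr6 and Il23r in 1 and 6 each, and Ncr1, which encodes NKp46, in 2 and 4. Ncr1 was marked in 4 of 4 NKp46+ libraries and in 1 each of CCR6+ and DN. Ccr6 was marked in 3 of 4 CCR6+ libraries and in 2 each of NKp46+ and DN. Il22 and Il17a were unmarked in all 12, as were the B cell markers Ms4a1 and Pax5. Several markers of other cell types were marked in most libraries. Epcam (epithelium) was marked in 6 KO and 6 WT libraries, and Cd3e (T cells), Eomes (NK cells) and Il1rl1 (ILC2s) in 5 and 6 each. Gzmb (NK cells) and Cdh1 (epithelium) were marked in 5 and 5 each, and Col1a1 (stroma) in 6 and 3. Other markers of the same cell types varied. Vil1 (epithelium), Col3a1 (stroma) and Il5 (ILC2s) were unmarked in all 12. Krt8 (epithelium) was marked in 3 KO and 1 WT libraries, and Cd8a (T cells) and Klrb1c (NK cells) in 2 and 4 each. Cd5 (T cells) was marked in 2 and 2, Il13 (ILC2s) in 1 and 2, and Pecam1 (endothelium) in 3 and 6. The ILC3 markers were fewest in KO CCR6+ replicate 1, with 3 of 9, where Nr1d1, Dbp and Per1 were also shortest, and their part in these values was not tested.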

How the data were processed

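CUT&Tag was run on 24 libraries, and the authors deposited 1 narrowPeak list for each. The submitters' processing notes name mm10 as the build and, without settings, MACS2 2.2.7.1, Bowtie2 2.3.5.1, fastp 0.19.7, ChIPseeker 1.28.3 and Picard. Whether a control library was used is not stated in them. The deposited lists give each peak's fold enrichment (a ratio to background), −log10 p-value and q-value, an integer score and a summit. The deposited score was not used, and fold enrichment served only to rank or filter peaks within a list. Groups came from the sample titles. The labels do not say whether replicates came from separate animals. All tests therefore take libraries as their units, and differences between libraries of a group may be technical.

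Gene positions and names came from a RefSeq table of GRCm38.p6, and promoters from RefSeq. A gene held a peak where 1 b or more overlapped it or its 5000 b flanks. Presence was compared by two-sided Fisher's exact tests over genes present in 2 to 10 of 12 libraries, and log2 covered length by limma 3.58.1 in R 4.3.3 over genes with H3K4me3 in all 12, with p-values adjusted by Benjamini and Hochberg's method at a threshold of 0.05. SciPy 1.17.1, pandas 2.3.3, matplotlib 3.10.9 and NumPy 2.4.6 ran under Python 3.11.15, and the tests were run on simulated data first. Offsets count from the annotated 5′ end, or for Per2, whose strand was not given, from its higher coordinate.

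Same-numbered KO and WT libraries deviated together, so replicate numbers were taken to pair them. Correlations for H3K4me3 coverage were 0.186, 0.369 and 0.429 in CCR6+, NKp46+ and DN cells. For CFP1 presence they were 0.102, 0.231 and 0.245 in the same order. The main Fisher's exact tests and the main limma fit did not use this pairing. It entered the matched pairs and the replicate block. Within an antibody, the names of the deposited lists of 1 replicate number also share a tag that differs from that of the other number. The clock genes and the pathway list were chosen with earlier results of these data known. All clock genes are named. Other pathway genes are named where they passed a test or differed by 3 or more libraries, and neighbours where a peak region overlaps or adjoins them. Tmem165, Vamp2, Vamp3, Uts2 and Mapk8ip1 also lie in clock gene regions, without such a peak region. Tef, Gsk3b and markers other than Il7r, Ccr6 and Ncr1 were named after their values were seen. Not every gene that this rule covers is reported here. Alternatives were a fold enrichment of 5 or more, an overlap of 200 b, windows of 1 kb around starts, the replicate block, exact permutation within subsets, no centring, the widest peak, genes with H3K4me3 in 10 or more libraries, and each library left out.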

Additional observations from a re-analysis of the deposited data

Results flagged for a closer look

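In 20 groups of 6 libraries (10 clock genes, 2 genotypes), 3 libraries stood apart in centred log2 H3K4me3 coverage, and chance sets apart about 1 in 20 groups. They were KO DN replicate 1 at Per2 (0.69, the lowest KO value), WT CCR6+ replicate 1 at Per1 (1.60, the highest WT value) and WT NKp46+ replicate 1 at Nr1d2 (0.36, the highest WT value). In bases the Per2 and Per1 values were also the lowest KO (1717 b) and highest WT value (4098 b). The Nr1d2 value was 1373 b, inside a WT range of 1321 to 1701 b. That library had the lowest median coverage of the WT libraries, 1068 b, which centring subtracts. Subsets were also compared 2 at a time, in 30 comparisons over the 10 clock genes. At 2 genes the KO minus WT difference on the centred scale had opposite signs in both pairs of 2 subsets. For Cry2 it averaged −0.68 in CCR6+ and 0.32 in NKp46+ cells, and for Clock −0.17 in NKp46+ and 0.052 in DN cells. In bases the signs were the same at Cry2 and for Clock in NKp46+ cells. Clock in DN cells covered 1286 b in KO and 1492 b in WT in replicate 1. In replicate 2 it covered 1684 b in KO and 1620 b in WT, so in bases its sign differed between the DN replicates. These pairs of subsets were not tested against each other, nor was the number of such genes set against chance. The limma interaction over all 3 subsets had an unadjusted p of 0.00565 for Cry2 and 0.568 for Clock, and an adjusted p of 1.00 for both.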

How the results depend on the processing

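For CFP1 presence, where the reported count is 0 genes, 340 genes passed without KO DN replicate 2 and 979 without KO NKp46+ and KO DN of replicate 2. The range over single libraries left out was 0 to 340. For H3K4me3 presence, 0 genes passed in every alternative tried. The exact permutation and the replicate block, with smallest p-values of 0.00926 and 0.03125, could hardly call a gene after adjustment. For H3K4me3 covered length between KO and WT, 32 genes passed, against 7 with fold enrichment 5 or more, 0 with windows of 1 kb around starts, 80 with the replicate block, 0 without centring, 9 with the widest peak and 6 to 40 with a library left out. Between subsets, where 1 gene passed, the counts were 0 with fold enrichment 5 or more, with windows of 1 kb, without centring and with the widest peak, 2 with genes marked in 10 or more libraries, and 0 to 5 with a library left out. The genotype by subset count of 0 ran to 0 to 5 with a library left out. The replicate block changed no other call. For CFP1 presence the smallest p of the block test was also 0.03125, so it could hardly call a gene there and nothing is read from it.

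Among clock genes, the CFP1 difference at Nr1d1 was −1 library and turned to 1 with fold enrichment 5 or more. The log2 coverage difference of Clock (0.0016) was −0.0058 with windows of 1 kb, −0.052 without centring and −0.075 to 0.077 with a library left out. That of Nr1d2 (0.04) was −0.011 without centring and −0.054 to 0.10 with a library left out, and that of Cry2 (−0.10) was −0.17 to 0.019 likewise. Nr1d1 stayed at −0.46 to −0.71 in the 18 alternatives in which it could be fitted. The cause of these changes was not tested.

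Depth is unknown for every list, no test was run within a subset of 2 libraries a group, and time of day was not given. Coverage includes neighbours' regions at Per2, Cry1, Per3 and Dbp.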
